A study of Homo sapiens with 6 samples.

Results

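The genes described here are those of the UBE2 family, which encode ubiquitin-conjugating (E2) enzymes, taken from a comparison of human SNU-449 cells with and without introduced USP48. They were chosen by name: every probe set of the array annotated to exactly 1 gene symbol that starts with UBE2 was taken, UBE2L6 was left out, and each gene was represented by its brightest probe set. This gave 31 genes of 19775 measured, covered by 80 of the 54675 probe sets of the array. Of the 31, 25 are protein-coding in the RefSeq annotation, and the other 6 are RNA genes or transcribed pseudogenes that carry the family name.

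SNU-449 is an established hepatocellular carcinoma line. In the study, 3 arrays held RNA from SNU-449 cells transduced with a USP48 lentivirus and selected with puromycin as a stably expressing line (USP48 is a protease that removes ubiquitin); the titles call these cells transfected with USP48. The other 3 arrays held RNA from SNU-449 cells given the vector without USP48, called empty vector here. Nothing in the labels says that the 3 replicates of a group came from separate cultures or clones, so the spread behind each p-value may be technical.

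Ubiquitin is attached to proteins in a relay. An E1 enzyme activates ubiquitin and passes it to the active-site cysteine of an E2 enzyme, and an E3 ligase then brings the loaded E2 to the substrate. The E2 largely decides which lysine of ubiquitin is used for the next link, and so whether the chain marks a protein for the proteasome, for DNA repair or for signalling, while proteases cut ubiquitin off again.

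Promoters are shown first for the E2 genes whose values are set side by side below. UBE2C and UBE2S are the E2 enzymes of the anaphase-promoting complex, the ligase that drives exit from mitosis, and UBE2T is the E2 of the Fanconi DNA repair pathway. No promoter window was found for UBE2C, so none is shown for it. UBE2E2 is shown because an RNA gene of the family, UBE2E2-DT, starts beside it; that window was chosen after its values were seen. The sequences are the 250 bases before the start site from RefSeq (GRCh38.p14), at chr19:55407789-55408038 for UBE2S and chr1:202341937-202342186 for UBE2T, each on the minus strand, and at chr3:23202848-23203097 on the plus strand for UBE2E2, where the most upstream start site in the table was taken. They are written in the direction of transcription, and capitals mark matches to TTTGAA (the core of the cell cycle element called CHR) or to CCAAT, on either strand.
UBE2S: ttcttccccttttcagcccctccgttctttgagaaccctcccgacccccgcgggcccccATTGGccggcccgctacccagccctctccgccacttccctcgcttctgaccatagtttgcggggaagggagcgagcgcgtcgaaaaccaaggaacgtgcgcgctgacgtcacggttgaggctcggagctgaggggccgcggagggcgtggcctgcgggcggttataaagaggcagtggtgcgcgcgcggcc
UBE2T: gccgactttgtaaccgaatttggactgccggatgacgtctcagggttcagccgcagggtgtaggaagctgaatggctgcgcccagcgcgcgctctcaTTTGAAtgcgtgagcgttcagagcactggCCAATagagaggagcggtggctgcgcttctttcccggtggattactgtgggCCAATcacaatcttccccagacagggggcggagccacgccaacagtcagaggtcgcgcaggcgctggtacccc
UBE2E2: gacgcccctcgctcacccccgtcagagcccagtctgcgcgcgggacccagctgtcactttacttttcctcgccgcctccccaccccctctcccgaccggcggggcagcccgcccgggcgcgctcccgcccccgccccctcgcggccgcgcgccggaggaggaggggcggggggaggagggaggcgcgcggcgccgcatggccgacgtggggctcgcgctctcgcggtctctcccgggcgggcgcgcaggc
The capitals in the UBE2S sequence are a CCAAT on the opposite strand, which begins 191 bases before the start site. UBE2T has TTTGAA 153 bases and CCAAT 124 and 73 bases before its start site. UBE2E2 has neither motif in its window. The windows of UBE2E2 and UBE2E2-DT face in opposite directions, share 204 bases and have start sites 105 bases apart; a second annotated start of UBE2E2-DT lies 520 bases from that of UBE2E2 and its window shares none.

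Promoter windows of 300 bases, reaching 50 bases past the start site, were found for 22 of the 31 genes. UBE2C and UBE2H were not among them, so neither was searched for these motifs. TTTGAA matched in 3 of them (UBE2F, UBE2T and UBE2U) and CCAAT in 7 (UBE2E1, UBE2E3, UBE2F, UBE2S, UBE2T, UBE2U and UBE2Z). The same 3 genes held both in 1 window. Over all 35116 windows of that length, 15.2% held TTTGAA, 34.6% held CCAAT and 5.9% held both. A match is a description of these letters and not a binding site.

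The arrays of the groups differed in ways that touch the results. The hybridization controls, labelled RNAs added to every array in fixed amounts, averaged 10.02, 10.03 and 10.21 (log2) in the USP48-labelled arrays, against 9.80, 9.83 and 9.75 in the empty vector arrays. The GAPDH 5' minus 3' difference, a sign of RNA quality, was -0.51, -0.45 and -1.31 in the USP48-labelled arrays, against -0.32, -0.37 and -0.44 in the empty vector arrays, so that USP48-labelled array 3 stood apart. Without that array 8 of the 31 E2 genes described below rose and 5 fell; the part of these differences in the results was not tested otherwise. Of the 5 USP48 probe sets, 0 passed higher in limma (1 at an unadjusted p under 0.05) and 2 passed lower, at -0.82 and -0.63. Whether they match the introduced sequence was not analysed here, so the group is named by its label. Hepatocyte markers were dim, with ALB, APOA1, APOB and SERPINA1 (4 of 7 measured) below the array median on every array, while KRT18 and VIM were bright; 0 of the 7 hepatocyte markers were called in limma (1 higher at an unadjusted p under 0.05). Of the other marker genes, EPCAM, CDH1, VIM, CDH2 and the endothelial CDH5 were called lower and FN1 higher. Of the 5 epithelial markers, CDH1 and KRT19 lay below the array median on every array, so the call of CDH1 rests on dim values. Leukocyte markers were below the array median on every array for 4 of 5 measured, among them PTPRC, and 0 were called (1 higher at an unadjusted p under 0.05). Their summed log2 level was 15.40 to 16.38 in the USP48-labelled arrays and 14.70 to 15.72 in the empty vector arrays.

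Among the E2 genes, UBE2H was the one with the largest increase and UBE2C the one with the largest decrease, each by more than 2-fold at its brightest probe set. With the mean of all probe sets UBE2H was higher by 0.25 only, below UBE2Q2P16, UBE2F, UBE2E2-DT, UBE2E2 and UBE2D3-AS1 (0.26 to 0.52), while UBE2C has a single probe set. In all, 10 of the 31 genes rose and 5 fell in the USP48-labelled arrays, and 16 did not pass (limma on the log2 values, two-sided, adjusted p under 0.05 by Benjamini-Hochberg over all 19775 genes). Over all genes, 29.8% passed, 15.7% higher and 14.1% lower. With the values as deposited, the 15 called E2 genes are thus a larger share of 31 than that background, a difference that was not tested. Among the 25 protein-coding members 7 rose and 5 fell. The values of the groups did not overlap for 17 of the 31 genes, against a background of 42.9% of all genes.

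The median log2 difference of the 31 genes was 0.12, and 0.09 for the protein-coding ones, beside 0.05 for all genes. These values are relative to the arrays as deposited, where the distributions of the arrays are nearly equal. Scaling each array on its hybridization controls moved every difference by -0.29, with a median of -0.17 for the E2 genes and -0.24 for all genes. On that scale 1 E2 gene was higher (UBE2H) and 9 were lower, beside 4.84% and 37.9% of all genes. Both are smaller shares of 31 than that background, so the larger share of called E2 genes did not hold on that scale. Each direction below is therefore relative to the other genes on the arrays, and the genes that turn with that scaling are named. Leaving out 1 array lowered the count of genes that rose to 6 without USP48-labelled array 1, to 6 without empty vector array 1, to 6 without empty vector array 2 and to 5 without empty vector array 3. In such bulk samples, fewer cells of a type and less RNA per cell cannot be told apart.

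**Figure D1:**
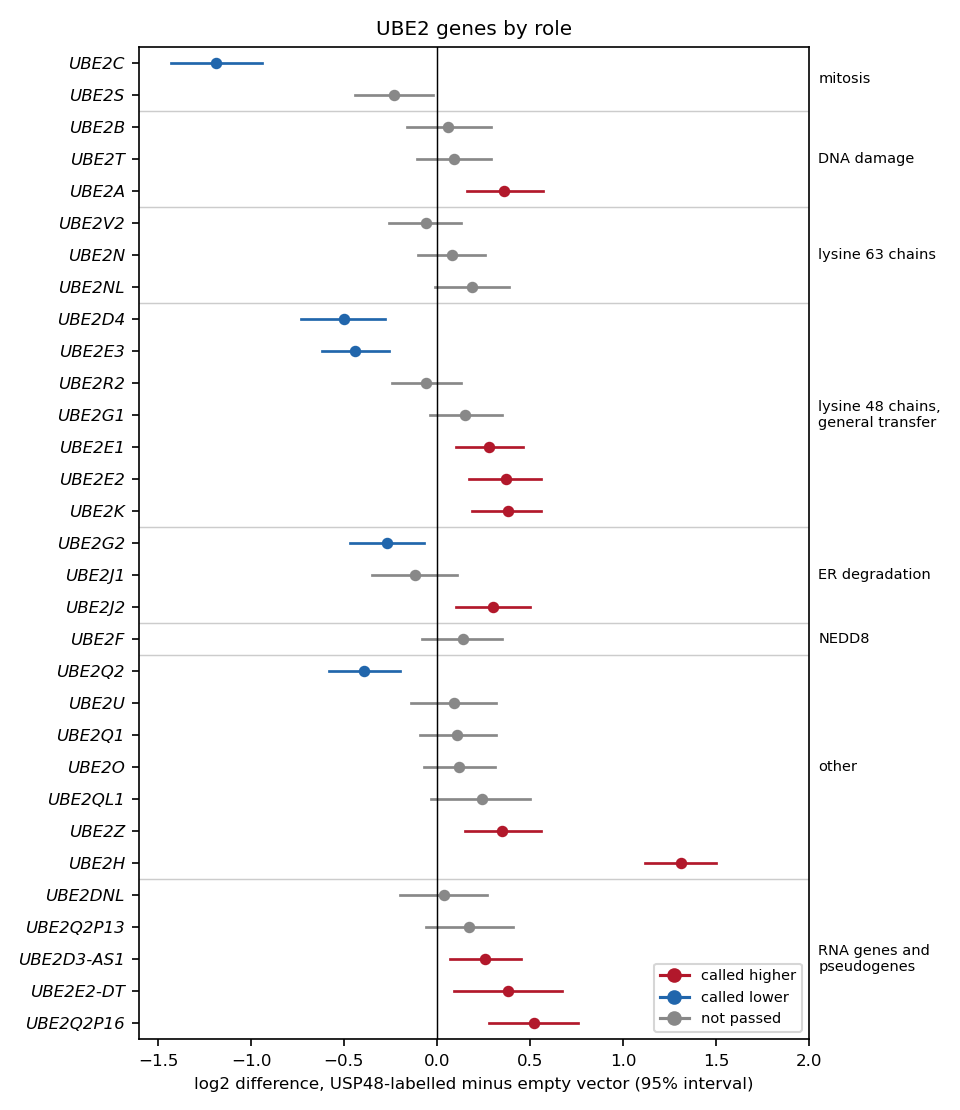
Log2 difference (USP48-labelled minus empty vector) of the 31 UBE2 genes with its 95% interval from limma, grouped by role; points and bars are red for genes called higher, blue for lower and grey for those that did not pass. UBE2H at 1.31 and UBE2C at -1.19 lie outside the range of the others, which runs from -0.50 to 0.52; scaling on the hybridization controls moves every point by -0.29.

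UBE2H is the E2 that works with the CTLH complex, a ligase known from red cell maturation. Its level was 9.05, 8.92 and 8.93 (log2, replicates 1 to 3) in the USP48-labelled arrays, against 7.74, 7.61 and 7.62 in the empty vector arrays. All USP48-labelled arrays lay above all empty vector arrays, and the gap between the groups was many times the spread within them. The difference was 1.31 ± 0.09 (SE), a 2.48-fold rise with an adjusted p of 2.6e-06 in limma. With the controls as scale it was 1.02, still called higher (adjusted p = 7.1e-06), and with the mean of its 8 probe sets it was 0.25 (adjusted p = 0.030).

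UBE2C starts ubiquitin chains on substrates of the anaphase-promoting complex. It had 8.95, 9.02 and 8.71 in the USP48-labelled arrays, against 10.21, 10.13 and 9.91 in the empty vector arrays. Every USP48-labelled array was below every empty vector array. The difference was -1.19 ± 0.11 (SE), which is 2.27-fold lower (limma adjusted p = 2.4e-05). UBE2C has 1 probe set, so no other probe set of the gene bears on it.

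UBE2S lengthens the chains that UBE2C begins, linking ubiquitin through its lysine K11. Its values were 10.04, 10.05 and 9.87 in the USP48-labelled arrays, against 10.30, 10.26 and 10.08 in the empty vector arrays. The groups came close but did not overlap. The difference of -0.23 (95% interval -0.44 to -0.02) did not pass (limma adjusted p = 0.103). It passed with quantile normalization (-0.26, adjusted p = 0.049), with a prior that follows intensity (adjusted p = 0.036) and on the control scale (-0.52, adjusted p = 0.0036). Of the role's 2 genes, then, 0 rose and 1 fell, and 2 were lower at an unadjusted p under 0.05.

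UBE2T works with FANCL, the ligase of the Fanconi core complex, which marks FANCD2 and FANCI at blocked replication forks. UBE2T had 9.26, 9.18 and 9.10 in the USP48-labelled arrays, against 9.19, 9.11 and 8.97 in the empty vector arrays. The values of the groups were interleaved. The difference was 0.09 with a 95% interval from -0.11 to 0.29 (limma adjusted p = 0.509), and it turned to -0.20 on the control scale.

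UBE2A and UBE2B are near-identical counterparts of yeast Rad6, which with RAD18 marks PCNA for bypass of DNA damage and with RNF20 and RNF40 marks histone H2B. UBE2A had 10.10, 9.94 and 10.03 in the USP48-labelled arrays, against 9.78, 9.66 and 9.55 in the empty vector arrays. These groups did not overlap. UBE2A rose by 0.36 ± 0.09 (SE, limma adjusted p = 0.013), a call lost without USP48-labelled array 1 (adjusted p = 0.050) or without empty vector array 3 (adjusted p = 0.052), on the control scale (0.07) and with the mean of its probe sets (-0.03). UBE2B, at 9.77, 9.94 and 10.12 in the USP48-labelled arrays against 9.86, 9.96 and 9.82 in the empty vector arrays, overlapped and differed by 0.06 (95% interval -0.16 to 0.29; -0.23 on the control scale). Of the 3 genes of DNA damage tolerance and Fanconi repair, 1 rose and 0 fell in limma (0 lower at an unadjusted p under 0.05).

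**Figure D2:**
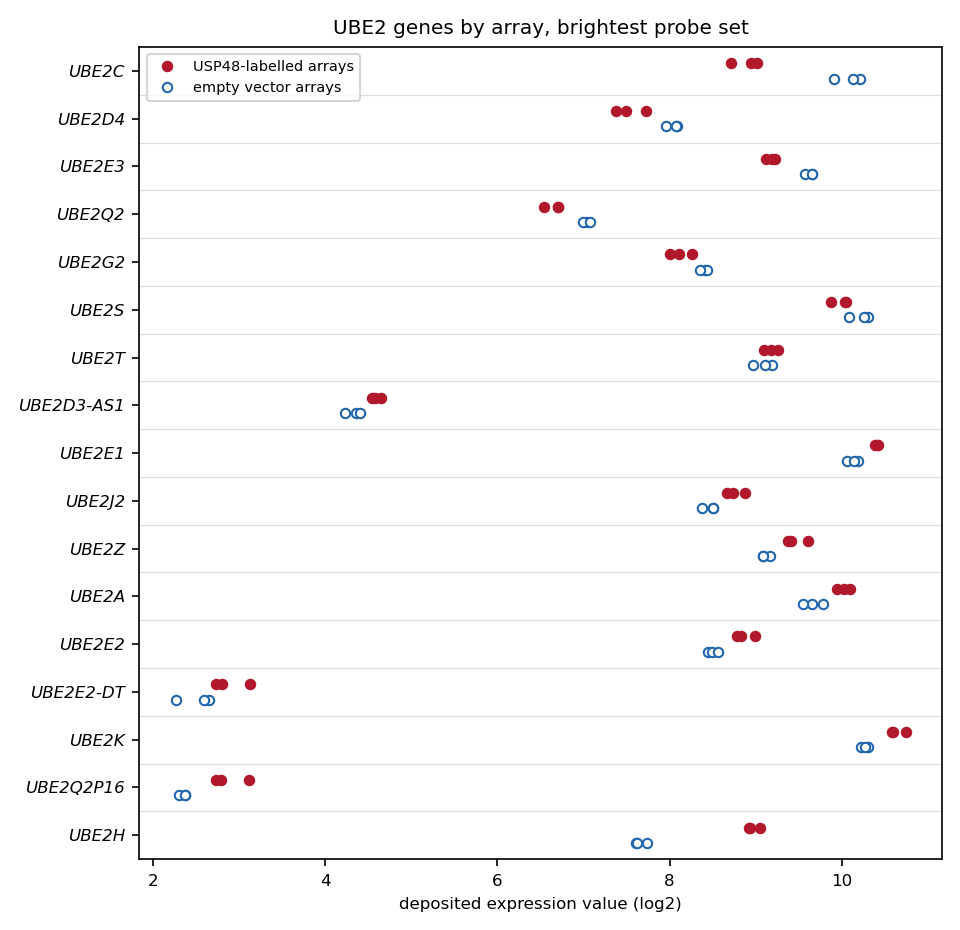
Deposited log2 value on each array for the 15 called UBE2 genes and for UBE2S and UBE2T; filled red points are the 3 USP48-labelled arrays, drawn above the open blue points of the 3 empty vector arrays. The groups are separate in every row except that of UBE2T, with the widest gaps for UBE2C and UBE2H; levels of different genes come from different probes and are not comparable.

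The enzymes of general ubiquitin transfer and of K48-linked chains, the chains that send proteins to the proteasome, moved in both directions: of 7 measured, 3 rose and 2 fell, with a median of 0.15 (-0.14 on the control scale). Over all genes, 15.7% rose and 14.1% fell, and the role was not tested against that. The 3 UBE2E genes encode closely related E2 enzymes with an extended N-terminus, and they did not move together. UBE2E3 had 9.23, 9.12 and 9.19 in the USP48-labelled arrays, against 9.65, 9.57 and 9.65 in the empty vector arrays. It fell by 0.44 on the log2 scale, 1.36-fold lower (SE 0.08, limma adjusted p = 0.0021). The other UBE2E genes went the opposite way. UBE2E2 had 8.78, 8.83 and 8.99 in the USP48-labelled arrays, against 8.45, 8.49 and 8.56 in the empty vector arrays. UBE2E1 had 10.42, 10.38 and 10.41 in the USP48-labelled arrays, against 10.19, 10.06 and 10.14 in the empty vector arrays. For each of the 3 the groups did not overlap, with UBE2E3 low and the other two high in the USP48-labelled arrays.

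UBE2E2 rose by 0.37 (SE 0.09, limma adjusted p = 0.0096), and no array left out ended that call. UBE2E1 rose by 0.28 (SE 0.08, limma adjusted p = 0.025), a call that ended without USP48-labelled array 1 (adjusted p = 0.069), without empty vector array 2 (0.097) or without empty vector array 3 (0.056). With the mean of its probe sets UBE2E1 was at 0.07 and did not pass (adjusted p = 0.506). On the control scale neither passed, and UBE2E1 turned to -0.02. The promoter window of UBE2E2 is the one printed above.

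UBE2D4 belongs to the UBE2D family, the E2 enzymes that work with the widest range of ligases. It had 7.38, 7.49 and 7.73 in the USP48-labelled arrays, against 7.96, 8.09 and 8.07 in the empty vector arrays. The USP48-labelled arrays were all lower, with array 3 the nearest to the empty vector group. UBE2D4 fell by 0.50 on the log2 scale, 1.42-fold lower (SE 0.10, limma adjusted p = 0.0038).

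UBE2K assembles K48 chains on its own. Its level was 10.58, 10.59 and 10.74 in the USP48-labelled arrays, against 10.30, 10.22 and 10.27 in the empty vector arrays. The groups were well apart, and UBE2K rose by 0.38 (SE 0.08, limma adjusted p = 0.0067), or by 0.08 without a call on the control scale. With the mean of its 3 probe sets UBE2K was lower instead, at -0.28 (adjusted p = 0.027). UBE2G1 and UBE2R2 extend chains on substrates of cullin ligases and did not pass. UBE2G1 differed by 0.15 (95% interval -0.04 to 0.35), which turned to -0.14 on the control scale, and UBE2R2 by -0.06 (95% interval -0.24 to 0.13). UBE2R2 passed as lower on the control scale (-0.35, adjusted p = 0.030) and with its probe sets averaged (-0.39, adjusted p = 0.0021).

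For K63-linked chains, which serve in signalling and DNA repair, 0 of 3 genes passed in limma and 0 had an unadjusted p under 0.05. UBE2N, the E2 that builds them, had 10.27, 10.31 and 10.36 in the USP48-labelled arrays, against 10.30, 10.19 and 10.22 in the empty vector arrays. The groups overlapped, and the difference of 0.08 had a 95% interval from -0.10 to 0.26. UBE2V2, the inactive partner that orients the acceptor ubiquitin, differed by -0.06 (95% interval -0.26 to 0.13), and passed as lower on the control scale (-0.36, adjusted p = 0.026). UBE2NL, a copy of UBE2N that the annotation lists as a transcribed pseudogene, differed by 0.19 (95% interval -0.01 to 0.39). The brightest probe set of UBE2N and that of UBE2NL carry the suffix for probes that may bind other transcripts. Signal of the copy cannot be kept apart from UBE2N there. A dimmer UBE2N probe set without that suffix, 212751_at, was at -0.41 and did not pass (limma adjusted p over probe sets = 0.077). It passed as lower on the control scale (-0.70, adjusted p = 0.0013). On the control scale UBE2N turned to -0.22 and UBE2NL to -0.10.

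The 3 E2 enzymes of ER-associated degradation, which removes misfolded proteins from the endoplasmic reticulum, split: 1 rose, 1 fell and 1 did not pass. UBE2J2 is anchored in the ER membrane and had 8.74, 8.88 and 8.67 in the USP48-labelled arrays, against 8.51, 8.51 and 8.38 in the empty vector arrays. UBE2G2 is a soluble E2 of the same pathway and had 8.01, 8.11 and 8.26 in the USP48-labelled arrays, against 8.41, 8.44 and 8.35 in the empty vector arrays. Each of these pairs of groups was separate by a narrow margin.

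UBE2J2 rose by 0.30 (SE 0.09, limma adjusted p = 0.030), and the call held only when USP48-labelled array 3 was the array left out; without any other array the adjusted p was 0.058 or higher. UBE2G2 fell by 0.27 (SE 0.09, limma adjusted p = 0.045), and its call likewise held only without USP48-labelled array 3, with 0.072 to 0.152 otherwise. With the replicate number as a block UBE2G2 had an adjusted p of 0.064. With its probe sets averaged UBE2J2 was at 0.000 (adjusted p = 0.998), and UBE2G2 turned to 0.04 there. On the control scale UBE2J2 was at 0.004, and UBE2J1, the other membrane-anchored E2, passed at -0.41 (adjusted p = 0.007). As deposited, UBE2J1 differed by -0.12 (95% interval -0.35 to 0.11) and its groups overlapped, while the mean of its probe sets passed as lower (-0.40, adjusted p = 0.0093).

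UBE2F transfers NEDD8, a ubiquitin-like protein that activates cullin ligases. It had 7.81, 7.80 and 7.62 in the USP48-labelled arrays, against 7.74, 7.52 and 7.57 in the empty vector arrays. The groups overlapped, and the difference of 0.14 (95% interval -0.08 to 0.35, limma adjusted p = 0.334) turned to -0.16 on the control scale. With its probe sets averaged, UBE2F passed as higher (0.38, adjusted p = 0.0046).

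Among 7 genes of other or less studied roles, 2 rose (UBE2H and UBE2Z) and 1 fell (UBE2Q2). UBE2Z takes its ubiquitin from the E1 enzyme UBA6 and had 9.37, 9.61 and 9.41 in the USP48-labelled arrays, against 9.08, 9.17 and 9.08 in the empty vector arrays. UBE2Z rose by 0.35 (SE 0.09, limma adjusted p = 0.014), a call lost without empty vector array 1 (adjusted p = 0.051), on the control scale (0.06) and with its probe sets averaged (0.13, adjusted p = 0.274). UBE2Q2 had 6.70, 6.54 and 6.71 in the USP48-labelled arrays, against 7.04, 6.99 and 7.08 in the empty vector arrays. In each of these genes the groups were separate, high for UBE2Z and low for UBE2Q2 in the USP48-labelled arrays. UBE2Q2 fell by 0.39 on the log2 scale, 1.31-fold lower (SE 0.09, limma adjusted p = 0.0061).

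Its relative UBE2Q1 differed by 0.11 (95% interval -0.09 to 0.32), turning to -0.18 on the control scale. UBE2O, a large protein that acts as E2 and E3 in one chain, had 6.79, 6.91 and 6.74 in the USP48-labelled arrays, against 6.73, 6.74 and 6.61 in the empty vector arrays. Its groups touched without overlap, and the difference of 0.12 did not pass (limma adjusted p = 0.348; -0.17 on the control scale). The less studied UBE2QL1 and UBE2U lay below the array median on every array. UBE2QL1 differed by 0.24 (95% interval -0.03 to 0.50), or -0.06 on the control scale. UBE2U differed by 0.09 (95% interval -0.14 to 0.32), or -0.20 on the control scale.

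The 5 further members are the RNA genes UBE2D3-AS1 and UBE2E2-DT and the transcribed pseudogenes UBE2DNL, UBE2Q2P13 and UBE2Q2P16, and 3 of them were called higher. UBE2Q2P16 had 2.79, 2.74 and 3.12 in the USP48-labelled arrays, against 2.38, 2.31 and 2.38 in the empty vector arrays. USP48-labelled array 3 was the highest, and the groups did not overlap. The difference was 0.52 ± 0.11 (SE, limma adjusted p = 0.004), from a probe set below the array median on every array whose suffix marks probes that may bind other transcripts. The call was lost on the control scale (0.23, adjusted p = 0.104). The parent gene UBE2Q2 fell by 0.39, as given above.

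UBE2E2-DT, the divergent transcript beside UBE2E2, had 2.74, 3.13 and 2.81 in the USP48-labelled arrays, against 2.65, 2.27 and 2.60 in the empty vector arrays. The lowest USP48-labelled value was just above the highest empty vector value, and all 6 lay below the array median. The difference of 0.38 (SE 0.13, limma adjusted p = 0.049) kept its call without USP48-labelled array 1 and in no other repeat with 1 array left out, where the adjusted p was 0.051 to 0.187. UBE2E2 and UBE2E2-DT were thus higher by 0.37 and 0.38 as deposited, and neither passed on the control scale. Only the nearer annotated start of UBE2E2-DT shares window bases with UBE2E2, and which start its probe set reads was not analysed.

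UBE2D3-AS1, an antisense RNA gene, had 4.65, 4.58 and 4.55 in the USP48-labelled arrays, against 4.23, 4.36 and 4.41 in the empty vector arrays. The groups were separate, but the call at 0.26 (SE 0.09, limma adjusted p = 0.043) was lost without any 1 of the 6 arrays (0.051 to 0.158) and turned to -0.03 on the control scale. UBE2DNL differed by 0.04 (95% interval -0.20 to 0.27) and UBE2Q2P13 by 0.17 (95% interval -0.06 to 0.41), and on the control scale they were at -0.26 and -0.12. The 6 members below the array median on every array were UBE2DNL, UBE2E2-DT, UBE2Q2P13, UBE2Q2P16, UBE2QL1 and UBE2U. The left-out UBE2L6, the E2 of the interferon-induced modifier ISG15, was at 9.69, 9.87 and 8.90 in the USP48-labelled arrays, against 7.36, 7.48 and 7.16 in the empty vector arrays, with the groups far apart.

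Probe sets of one E2 gene did not always move alike. When all probe sets were tested (adjusted over probe sets), 15 of the 80 E2 probe sets were higher and 15 lower, beside 10.6% and 13.8% of all probe sets. On the control scale 4 were higher and 35 lower, beside 3.34% and 39.0% of all probe sets, so the share of E2 probe sets that was lower there was near that of all. Of the 49 that were not the brightest of their gene, 7 were higher and 11 lower. Among the 19 genes with several probe sets, UBE2A, UBE2B, UBE2G1, UBE2H and UBE2K (5 genes) had probe sets called in opposite directions. With at least 3 probe sets, 4 of 13 E2 genes did so, against 8.71% of all genes with that many. These calls are on the deposited scale. On the control scale the higher probe sets of UBE2A (0.07), UBE2B (0.03) and UBE2K (0.08) were not called. That of UBE2G1 was at the threshold (0.32, limma adjusted p over probe sets = 0.050). UBE2H kept calls in both directions there (1.02 and -1.08).

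UBE2H has 8 probe sets. Beside the brightest at 1.31 (221962_s_at), 227950_at was higher by 1.14 and 222419_x_at by 0.49, while 222421_at was lower, at -0.79, and 4 did not pass. The lower one had 5.14, 5.52 and 5.69 in the USP48-labelled arrays, against 6.41, 6.22 and 6.09 in the empty vector arrays, so its groups were separate in the opposite direction. The size and the direction of the UBE2H difference therefore depend on the probe set.

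For UBE2K the dimmer 225179_at had 4.40, 4.56 and 4.37 in the USP48-labelled arrays, against 5.84, 5.43 and 5.71 in the empty vector arrays. Its difference was -1.21 (limma adjusted p over probe sets = 3.6e-05), opposite to the brightest probe set, and 202346_at was at 0.01. The direction of UBE2K therefore depends on the probe set. UBE2G1 had 209142_s_at higher by 0.62 and 226005_at lower, at -1.06, with its brightest probe set between them. UBE2A had its second probe set, 201899_s_at, lower at -0.42, and the mean of both was -0.03.

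Of the 16 genes that did not pass, 6 had another probe set called. UBE2J1 had 217824_at at -1.03 and 217825_s_at at -0.70, both lower, and all 6 of its probe sets had differences below 0. UBE2F had 225783_at at 0.80 and 231948_s_at at 0.42, both higher. In UBE2R2, 226954_at was lower, at -0.73. For these genes the brightest probe set alone would miss a call. UBE2Q1 had 222480_at lower, at -0.50. UBE2B had 239163_at lower at -0.77 and 202333_s_at higher at 0.33, and UBE2G1 is described above. UBE2G2 and UBE2D4, called lower by their brightest probe sets, also had probe sets that differed. UBE2G2 passed at the gene level with its brightest probe set at -0.27, but over probe sets that probe set had an adjusted p of 0.065 and the dimmer 209041_s_at was higher by 0.34. For UBE2D4, 221949_at (-0.52) and 58900_at (-0.42) were lower along with the brightest probe set, and 65521_at was at 0.19 without passing.

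**Figure D3:**
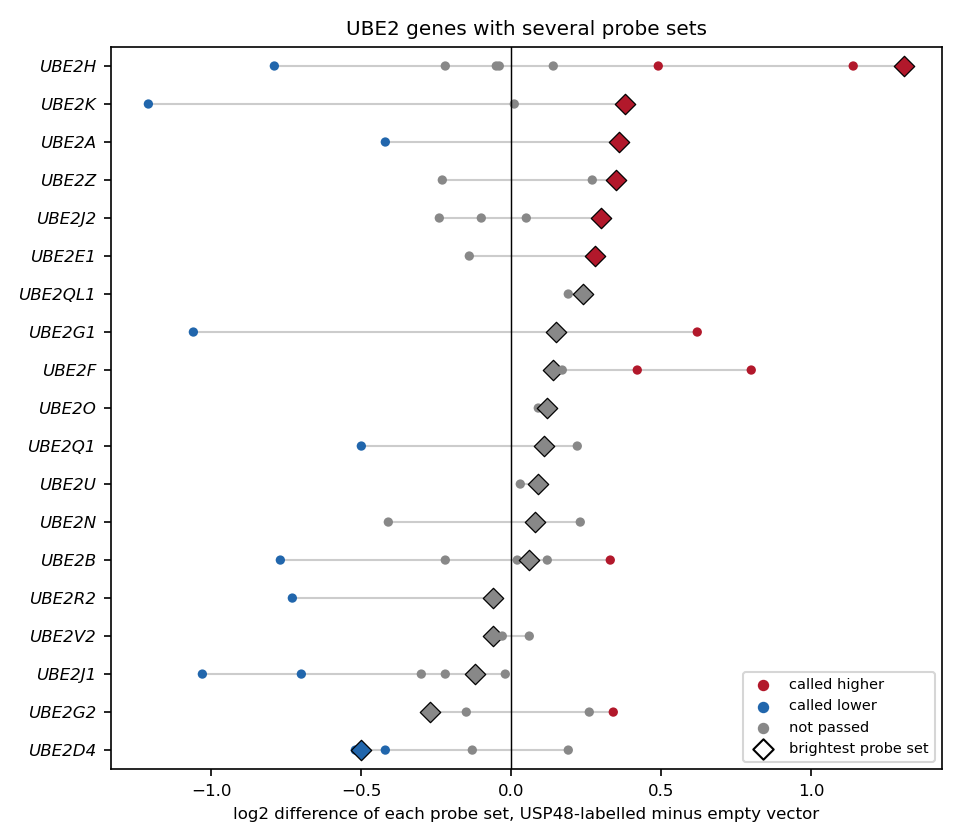
Log2 difference (USP48-labelled minus empty vector) of every probe set of the 19 UBE2 genes that have several; diamonds mark the brightest probe set, colours give the call of limma adjusted over all probe sets, and a grey line spans each gene. UBE2A, UBE2B, UBE2G1, UBE2H and UBE2K have a red and a blue point on the same line, and the lowest point is that of UBE2K at -1.21.

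The genes that E2 enzymes work with were counted from lists drawn up by function, in the same fit over all genes. Over all genes 15.7% were called higher and 14.1% lower, and on the control scale 4.84% and 37.9%. The lists are small, and no list was tested against these shares. The counts moved with the control scale and with the mean of probe sets, and both are given where they did. Upstream of the E2 enzymes, the ubiquitin precursor gene measured, UBB, differed by 0.05. Of 7 E1 genes, 0 rose (0 higher at an unadjusted p under 0.05 in limma) and 2 fell: NAE1 of the NEDD8 E1 at -0.37 and SAE1 of the SUMO E1 at -0.31, with a list median of -0.08. Among 8 E2 enzymes and E2-like proteins of other names, AKTIP and ATG3, the E2 of the autophagy protein LC3, each rose by 0.37 and BIRC6, an E2 that holds back cell death, fell, at -0.63 (median 0.10). The E1 count was 1 without USP48-labelled array 1 or empty vector array 2, and the count of these other E2 genes that rose was 1 without empty vector array 1 or 3. Scaled on the controls, 4 E1 genes were lower, and 0 of these other E2 genes were higher and 3 lower; with the mean of probe sets 1 E1 gene and 1 other E2 gene were higher. The E2 CDC34, a relative of UBE2R2, differed by 0.11 and did not pass.

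Around UBE2C and UBE2S, 7 of 16 genes of the anaphase-promoting complex fell and 1 rose. Their median was -0.23 beside 0.05 for all genes, and on the control scale -0.52 beside -0.24. With that scale 13 of the 16 were lower and 1 higher, beside 37.9% and 4.84% of all genes. With the mean of probe sets 7 were lower and 2 higher. CDC20, the activator of the complex in mitosis, had 8.38, 8.72 and 8.53 in the USP48-labelled arrays, against 9.46, 9.58 and 9.23 in the empty vector arrays. CDC20 was 1.84-fold lower, at -0.88 (limma adjusted p = 2.5e-04), and the inhibitor FBXO5 fell by 0.45. The subunit ANAPC10, which helps to bind substrates, rose by 0.96 (limma adjusted p = 7.2e-05), and ANAPC4, ANAPC5, ANAPC16, CDC23 and CDC27 were lower by 0.33 to 0.43 on the log2 scale.

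For UBE2T, 2 of 10 Fanconi genes rose (FANCE at 0.38 and FANCB at 0.37) and 2 fell (FANCG at -0.41 and FANCC at -0.37), with a median of 0.18 (-0.12 on the control scale). The number that rose was 1 without USP48-labelled array 1 or 2 or empty vector array 2, and the number that fell was 1 without USP48-labelled array 2 or 3 or empty vector array 2 or 3. Scaled on the controls, 0 rose and 3 fell; with the mean of probe sets 1 rose and 3 fell, and with quantile normalization 4 rose. Among the 7 partners of UBE2A and UBE2B, 0 rose (0 at an unadjusted p under 0.05 in limma) and 2 fell, WAC at -0.35 and RNF20 at -0.27 (median -0.25). None of those 7 passed without USP48-labelled array 1 or 2 or empty vector array 1, and 1 passed without empty vector array 3 or with quantile normalization. On the control scale 6 of the 7 were lower, beside 37.9% of all genes. For UBE2N, SHPRH (-0.61) and HLTF (-0.60) fell and TRAF6 rose by 0.29 among 5 ligases of K63 chains. The call of TRAF6 held only without USP48-labelled array 3 among the repeats with 1 array left out. It was lost with the replicate block, on the control scale and with the mean of probe sets, where 3 of the 5 were lower. Of 6 genes listed with the ligases of ER-associated degradation, not all of them ligases, SEL1L fell, at -0.39, and 0 rose (1 at an unadjusted p under 0.05). The call of SEL1L was lost without USP48-labelled array 1, USP48-labelled array 2 or empty vector array 2. There were 3 of the 6 lower on the control scale, beside 37.9% of all genes, and 1 was higher with quantile normalization or the mean of probe sets.

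Next to UBE2F, 5 of 8 genes of the NEDD8 pathway rose (DCUN1D3 at 1.24, DCUN1D4 at 0.58, RNF7 at 0.32, RBX1 at 0.28 and DCUN1D5 at 0.26) and 2 fell (DCUN1D2 at -0.88 and DCUN1D1 at -0.33), with a median of 0.27 (-0.02 on the control scale). With that scale 1 of the 8 was higher, beside 4.84% of all genes. With quantile normalization or the mean of probe sets 3 were higher and 1 lower. The number that rose was 3 without USP48-labelled array 1, USP48-labelled array 2, empty vector array 2 or empty vector array 3, and the number that fell was 1 without any array other than USP48-labelled array 3. UBE2F shares with these genes the step that switches cullin ligases on. Of 6 SUMO pathway genes, 3 fell, PIAS2 at -1.16, RANBP2 at -0.64 and SUMO3 at -0.52, and 0 rose (0 at an unadjusted p under 0.05 in limma). On the control scale 5 were lower, beside 37.9% of all genes, and with the mean of probe sets 4 were.

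RBR ligases take ubiquitin from the E2 onto their own cysteine. Of 10 genes listed with this class, 6 rose and 1 fell, with a median of 0.42 (0.13 on the control scale). With that scale 3 were higher and 2 lower, beside 4.84% and 37.9% of all genes, and with the mean of probe sets 4 were higher. RNF19B at 1.17, ARIH1 at 0.80 and RBCK1 at 0.57 had the largest rises, and RNF14 fell, at -0.38, a call lost without USP48-labelled array 1 or 2 or empty vector array 1 or 3. The CTLH complex, the ligase of UBE2H, had 4 of 9 genes higher and 1 lower, with a median of 0.16 (-0.14 on the control scale). With the mean of probe sets 0 were higher and 2 lower, and on the control scale 1 was higher and 1 lower. ARMC8 at 0.95, GID4 at 0.50, WDR26 at 0.39 and RMND5A at 0.35 rose at their brightest probe sets. MAEA, one of the RING subunits of the complex, had 6.63, 6.47 and 6.57 in the USP48-labelled arrays, against 7.44, 7.39 and 7.38 in the empty vector arrays, and was 1.8-fold lower, at -0.84 (limma adjusted p = 3.3e-05). At its brightest probe set UBE2H went the opposite way to MAEA, while 222421_at of UBE2H was lower (-0.79), as MAEA was.

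**Figure D4:**
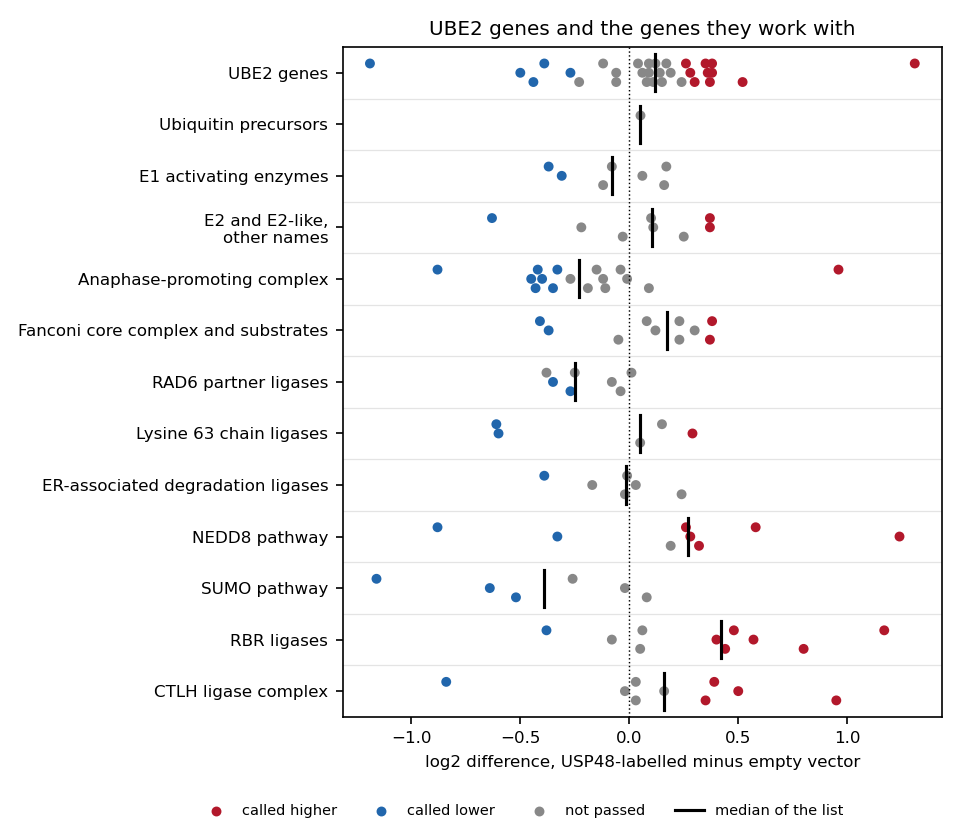
Log2 difference (USP48-labelled minus empty vector) of each measured gene, 1 row per list, with the 31 UBE2 genes at the top and their partners below; red and blue points are genes called higher and lower by limma over all genes, grey ones did not pass, and black bars are list medians. The median is lowest for the SUMO pathway (-0.39) and highest for the RBR ligases (0.42), beside 0.12 for the UBE2 genes; scaling on the hybridization controls moves all points by -0.29.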

How the data were processed

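The deposited values are log2 expression values of 6 Affymetrix arrays, 1 per probe set, made by the authors with RMA per the submitters' processing notes; its version is not given in the sources used here. They ran from 0.19 to 13.24, with array medians of 3.746 to 3.787. Values below 1 are unusual for RMA, so another background step cannot be told apart from it, and no detection calls were used. RMA equalises the arrays, so a change in total RNA cannot be seen. The number of arrays, 3 per group, limits the precision.

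Of 54675 probe sets, 62 were controls and 41091 named 1 symbol in the platform annotation, of which 41037 matched RefSeq (GRCh38.p14). The brightest probe set by mean over all arrays stood for each gene. Groups, taken from the titles, were compared with limma (version 3.58.1, under R 4.3.3), checked on simulated data. Alternatives were other normalizations (quantile, median, and the 18 hybridization control probe sets), the mean of a gene's probe sets, every probe set on its own, an intensity trend, a filter on dim genes, the replicate number as a block, each array left out, a stricter threshold and UBE2L6 included; protein-coding members alone were added after seeing the data.

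The members, the role and partner lists and the rules were chosen with earlier results of these data known. All members are named, with values on every array for those called with an absolute difference of at least 0.5 and for UBE2C, UBE2S and UBE2T, and up to 3 called genes per partner list with the largest difference. Array values of other members and further partner genes were chosen after their values were seen. The role lists hold 34 genes, of which 8 were not analysed here. Promoters were searched with Python 3.11.15, and figures drawn with matplotlib 3.10.9.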

Additional observations from a re-analysis of the deposited data

How the results depend on the processing

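Of the 15 called E2 genes, UBE2C, UBE2D4, UBE2E3, UBE2H and UBE2Q2 (5) kept their call in every setting run, and 8 kept it whichever array was left out. In the setting with every probe set on its own, the call counted is that of the brightest probe set, adjusted over all probe sets. Other probe sets of UBE2H and UBE2D4 did not all pass, and 222421_at of UBE2H was called lower. Over 428 values of single E2 genes under the alternatives, 350 kept direction and side of the threshold, 24 turned, 45 lost a call and 9 gained one. The count of E2 genes that rose, 10 as reported, was 5 to 8 with 1 array left out, 6 with the mean of all probe sets, 4 at an adjusted p under 0.01 and 1 with scaling on the hybridization controls. The count that fell, 5 as reported, was 9 with that scaling. The median difference, 0.12, was 0.04 with the mean of probe sets and -0.17 with that scaling. With the mean of all probe sets, the differences turned to -0.03 for UBE2A and UBE2N, -0.06 for UBE2B and UBE2Q1, -0.10 for UBE2G1, -0.28 for UBE2K and 0.04 for UBE2G2. With scaling on the hybridization controls they turned to -0.02 for UBE2E1, -0.03 for UBE2D3-AS1, -0.06 for UBE2QL1, -0.10 for UBE2NL, -0.12 for UBE2Q2P13, -0.14 for UBE2G1, -0.16 for UBE2F, -0.17 for UBE2O, -0.18 for UBE2Q1, -0.20 for UBE2T and UBE2U, -0.22 for UBE2N, -0.23 for UBE2B and -0.26 for UBE2DNL. This follows from its shift of -0.29; the cause of the unequal controls was not tested. With 1 array left out UBE2B ran from -0.02 to 0.15 and UBE2DNL from -0.05 to 0.13. With the replicate block, 8 E2 genes rose and 4 fell, and UBE2D3-AS1, UBE2E2-DT and UBE2G2 lost their calls (adjusted p = 0.067, 0.096 and 0.064). Same-numbered arrays correlated at 0.00, 0.17 and 0.01 in their deviations over genes, and the other pairs at -0.12 to 0.11. With 3 arrays per group this cannot settle whether same-numbered arrays were handled together, which the labels do not say. Dim members rest on values whose signal over background is unknown.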
